A study of Mus musculus with 19 samples.

Results

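Fibroblasts, myofibroblasts and pericytes make up much of the supporting tissue of a tumour, and this account follows 38 of their genes in 19 mouse mammary tumours. The genes were taken by symbol from a table of expected counts for 26796 genes: the surface proteins of fibroblasts, genes of resting and adventitial fibroblasts, small leucine-rich proteoglycans, elastic fibre and microfibril genes, matricellular genes, cross-linking enzymes, contractile genes and pericyte genes. Collagens and matrix metalloproteinases were left out. All 38 symbols were found and all 38 passed the filter on low counts, which kept 15629 genes.

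Met1, the line from which the tumours grew, came from a mammary tumour driven by the polyoma middle T oncogene. The hosts received extracellular vesicles, small membrane-bound particles released by cells, collected from neutrophils. The neutrophils had been exposed to the solvent DMSO (9 tumours) or to 27-hydroxycholesterol, a cholesterol metabolite called 27HC below (10 tumours), so all 19 tumours were exposed to neutrophil vesicles and none was left without them. The sources used here do not give the strain and age of the hosts, the vesicle dose or the implantation site. Nothing in the labels says that each tumour came from a separate mouse, so p-values measure the spread between these samples, which may be technical. Sample titles carry a pair of numbers, the first of which is 1 or 2 with no stated meaning, and tumours are named here by treatment and this pair (27HC 1_3).

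As background, fibroblasts carry the receptors for platelet-derived growth factors and secrete most of the proteins of the connective tissue. In wounds and tumours they can take on a contractile state with smooth-muscle actin, the myofibroblast, and lay down tenascin, periostin and thrombospondins. Elastic fibres are built from elastin on a scaffold of fibrillin microfibrils and are cross-linked by lysyl oxidases. Pericytes wrap small blood vessels, depend on platelet-derived growth factor from the endothelium, and share contractile genes with myofibroblasts, so several genes below mark more than 1 cell type. In RNA of whole tumours, fewer cells of a type and less RNA per cell cannot be told apart.

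Levels are given as CPM, counts scaled to library size by the steps described with the processing, and differences as log2 fold changes of 27HC against DMSO from edgeR's quasi-likelihood fit. Library totals ran from 28139419 to 41179056 expected counts. Some libraries stood apart. In 5 of them, DMSO 1_5 and 2_3 and 27HC 1_3, 1_5 and 2_3, the mean GC content of the transcripts counted was 49.8% to 50.01%, against 51.2% to 52.8% in the other 14, and they are called low-GC libraries below. Summed over 12 genes, skeletal muscle markers ranged from 6.86 to 1671 CPM in DMSO and from 5.81 to 4406 CPM in 27HC tumours, and 6 salivary gland genes summed to 6035 CPM in DMSO 1_5 and 979 CPM in 27HC 2_2. Of the epithelial markers of a mammary tumour, the keratin Krt18 had means of 86.1 and 84.2 CPM in DMSO and 27HC tumours, Krt8 3.35 and 3.74 CPM, and Epcam 3.46 and 2.37 CPM. The log2 fold change of Epcam was -0.57 (SE 0.53), and 0.54 without the low-GC libraries. Of 8 luminal markers 5 lay above 0 with all libraries and 7 without the low-GC libraries. Differences of the stromal genes are given with and without these libraries.

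Stromal genes stood high or low in the low-GC libraries along with their base composition, as the choice of these libraries by GC content largely fixes. Coding stretches of 6 members are shown first. They are the 3 members that stood highest and the 3 that stood lowest in those libraries among members with a mean of at least 5 CPM for which a stretch was taken; Pdgfrb also stood low and none of it is shown. Each is 90 bases of coding sequence on the gene's strand, read from the GENCODE M21 transcripts (GRCm38), and is the stretch whose GC content is nearest the mean of the gene's transcripts. Capitals mark G and C. The members that stood high were periostin, the pericyte regulator Rgs5 and lumican, printed first, and those that stood low were elastin, lysyl oxidase-like 1 and Notch3.
Postn: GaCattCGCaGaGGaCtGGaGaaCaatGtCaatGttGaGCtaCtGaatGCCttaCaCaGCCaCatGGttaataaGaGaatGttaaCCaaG
Rgs5: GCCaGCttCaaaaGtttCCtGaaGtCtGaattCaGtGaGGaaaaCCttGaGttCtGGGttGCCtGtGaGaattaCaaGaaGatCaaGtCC
Lum: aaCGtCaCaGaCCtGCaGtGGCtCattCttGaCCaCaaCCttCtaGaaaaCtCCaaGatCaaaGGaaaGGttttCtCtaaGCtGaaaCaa
Eln: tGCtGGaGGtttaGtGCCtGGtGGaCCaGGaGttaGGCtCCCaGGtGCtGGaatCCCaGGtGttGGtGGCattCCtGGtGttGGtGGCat
Loxl1: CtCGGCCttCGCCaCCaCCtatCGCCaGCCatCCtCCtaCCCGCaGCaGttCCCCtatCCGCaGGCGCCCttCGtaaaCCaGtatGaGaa
Notch3: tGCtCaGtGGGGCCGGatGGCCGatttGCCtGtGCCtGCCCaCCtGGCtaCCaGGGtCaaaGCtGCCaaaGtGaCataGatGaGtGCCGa
The stretch of Postn lies in exon 5 (chr3:54369149-54369238, plus strand), that of Rgs5 in exon 4 (chr1:169690424-169690513, plus strand) and that of Lum in exon 2 (chr10:97568506-97568595, plus strand). Their genes' transcripts hold 42.0%, 43.3% and 41.9% G and C. The stretch of Eln lies in exon 19 (chr5:134718074-134718163, minus strand), that of Loxl1 in exon 1 (chr9:58312315-58312404, minus strand) and that of Notch3 in exon 4 (chr17:32158609-32158698, minus strand). Transcripts of these genes hold 56.6%, 61.0% and 60.1%.

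No gene passed the threshold between 27HC and DMSO tumours, and so no stromal gene did. The groups that lay above 0 in every member were the elastic fibre and microfibril genes and the cross-linking enzymes. The log2 fold change was positive in 26 of the 38 members and negative in 12, and its median was 0.11. Over all genes tested the median was 0.01, and 8430 of 15629 genes lay above 0. The fibronectin type III gene Fndc1, the microfibril gene Mfap5 and the angiopoietin-like gene Angptl1 had unadjusted p under 0.05 and lay above 0. For Angptl1 the group medians lay in the opposite order, 0.298 CPM with 27HC and 0.350 CPM with DMSO.

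In edgeR's test 0 of 15629 genes (0%) had an adjusted p under 0.05, and the count of members was 0 of 38. An unadjusted p under 0.05 was found for 354 genes (2.27%) and for 3 members (7.89%), and every member's adjusted p was 1.00. DESeq2 called 2 genes (439 at an unadjusted p under 0.05) and limma-voom 0 (278), with no member among the calls of either. Without the low-GC libraries edgeR called 0 of 15260 genes, and 917 genes (6.01%) and 5 of 37 members had an unadjusted p under 0.05. The members were chosen with results of these data known, so the direction of their median is a description.

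**Figure D1:**
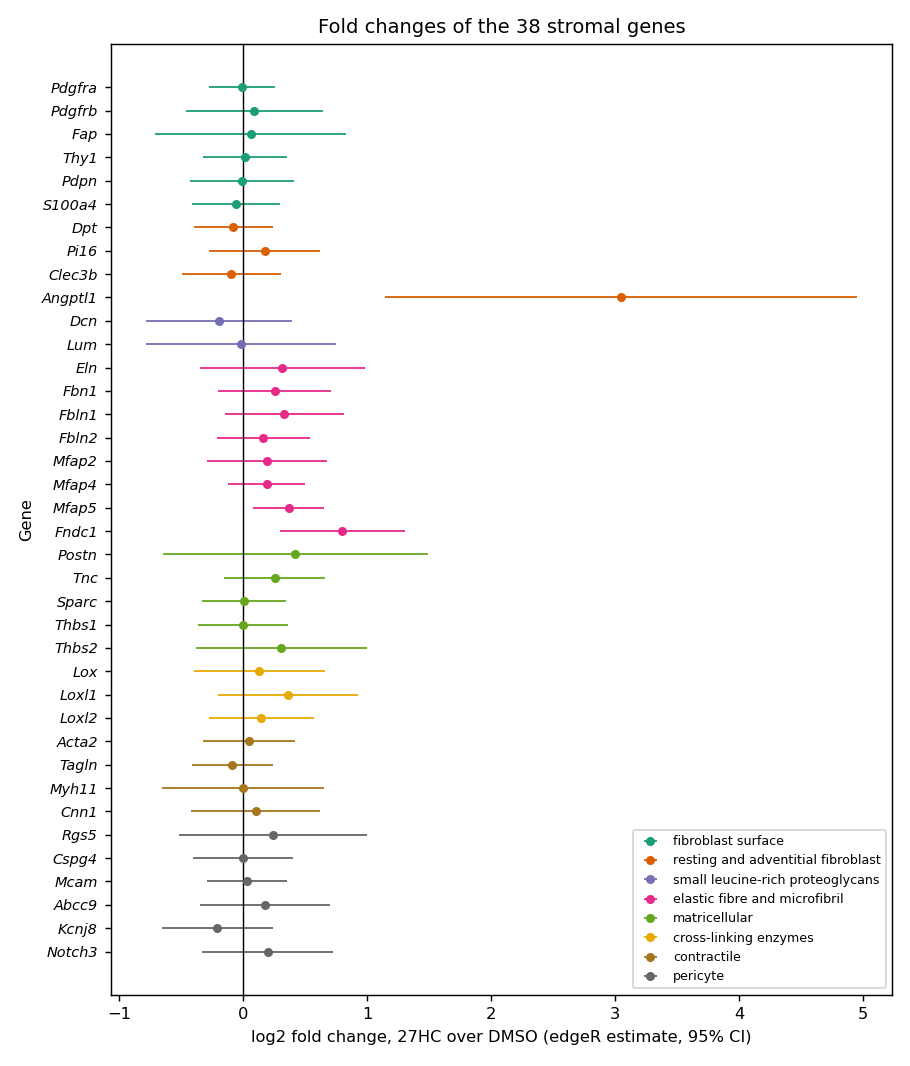
Log2 fold change of each of the 38 genes (27HC minus DMSO, horizontal axis), with bars for the 95% confidence interval of edgeR's quasi-likelihood fit, grouped by role. The 8 genes grouped as elastic fibre and microfibril lie between 0.16 and 0.80, with Fndc1 highest and Mfap5 next at 0.37. Angptl1 lies far to the right with the widest interval, and the interval of 3 genes leaves out 0.

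The 6 genes of the fibroblast surface and cytoplasm had a median log2 fold change of 0.00, with 3 above and 3 below 0, and the treatments overlapped for each. Pdgfra, the receptor that marks most fibroblasts, had 144 to 313 CPM with DMSO (median 241) and 184 to 289 CPM with 27HC (median 243). This was a narrow spread, 2.17 times between the lowest and highest tumour, and the difference was -0.01 (SE 0.13, 95% interval -0.28 to 0.26). Pdgfrb, the receptor of pericytes and activated fibroblasts, ran from 104 to 419 CPM with DMSO (median 307) and from 70.9 to 438 CPM with 27HC (median 320). Its lowest tumours were DMSO 1_5 and 27HC 1_3, both low-GC libraries, and the difference was 0.09 (SE 0.27).

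Fap, the fibroblast activation protein, a surface peptidase, was scarce: 0.807 to 4.33 CPM with DMSO (median 2.62) and 1.07 to 5.90 CPM with 27HC (median 1.65). Per kilobase of exon it had 0.439 CPM, the lowest mean of the 38 genes, against 23.9 for Pdgfra and 52.7 for Pdgfrb. Fap differed by 0.06 (SE 0.37), and by -0.43 without the low-GC libraries, which held 2.88 to 5.90 CPM of it. Thy1, a glycoprotein anchored in the membrane, had medians of 51.7 and 52.7 CPM and differed by 0.01 (SE 0.16). Podoplanin (Pdpn), a mucin-like protein of fibroblasts and lymphatic vessels, had medians of 6.98 and 7.02 CPM and differed by -0.01 (SE 0.20). S100a4, a calcium-binding protein that macrophages also make, had medians of 314 and 308 CPM and differed by -0.06 (SE 0.17). In the 14 other tumours the differences were -0.03 for Pdgfra, 0.16 for Pdgfrb, 0.07 for Thy1, -0.14 for Pdpn and -0.22 for S100a4. Per kilobase S100a4 had the highest mean level of the members, 540 CPM, followed by Sparc with 401 CPM.

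Genes of resting and adventitial fibroblasts fell on both sides of 0. Pi16, a marker of fibroblasts of the vessel sheath, had 60.2 to 122 CPM with DMSO (median 93.8) and 53.3 to 211 CPM with 27HC (median 107). The highest tumour was 27HC 2_1 and the lowest 27HC 2_3, so 1 treatment held both ends, and the difference was 0.17 (SE 0.22). Clec3b, which encodes the plasminogen-binding protein tetranectin, had medians of 8.58 and 8.10 CPM and the same tumours at the ends of its 27HC range, 3.76 CPM in 27HC 2_3 and 12.5 CPM in 27HC 2_1. It differed by -0.10 (SE 0.19). Dermatopontin (Dpt), a small matrix protein that binds decorin, had medians of 67.8 and 60.9 CPM and differed by -0.08 (SE 0.15). In the 14 others the differences were 0.33 for Pi16, 0.040 for Clec3b and -0.18 for Dpt.

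Angptl1, a secreted protein related to the angiopoietins (GRCm38 chromosome 1, 156838562 to 156861078, plus strand), was close to absent in most tumours. With DMSO it had 0.123 to 1.00 CPM (median 0.350), and with 27HC 0.118 to 12.8 CPM with a median of 0.298. The tumours that stood out were 27HC 1_3 with 12.8, 2_3 with 9.39, 1_5 with 4.59 and 1_2 with 1.54 CPM, and 5 of 10 27HC tumours exceeded the DMSO median. The log2 fold change was 3.04 (SE 0.92, 95% interval 1.14 to 4.95, unadjusted p = 0.00325, edgeR adjusted p = 1.00), while the medians of the groups lay in the opposite order.

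The first 3 of these tumours are low-GC libraries. Without the low-GC libraries Angptl1 did not pass the filter on low counts and gave no fold change. Summed skeletal muscle markers were 3581, 732, 4406 and 1391 CPM in 27HC 1_3, 2_3, 1_5 and 1_2. DMSO 1_2 and 1_4 had 1671 and 1456 CPM of muscle markers with 0.350 and 0.185 CPM of Angptl1. With a skeletal muscle score as covariate the log2 fold change was 0.95, and with sample quality weights in limma-voom it was 0.32. Correcting each library for GC content left a difference of 2.73 between the low-GC libraries and the others, from 3.34 before. The part of muscle or of library quality in this difference was not tested further.

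Both small leucine-rich proteoglycans, which bind collagen fibrils and space them, had log2 fold changes below 0 that were smaller than their errors. Decorin (Dcn, chromosome 10, 97479609 to 97518143) had 56.3 to 233 CPM with DMSO (median 109) and 65.0 to 189 CPM with 27HC (median 87.2), and differed by -0.19 (SE 0.28). Lumican (Lum, chromosome 10, 97565128 to 97572703), its neighbour on the chromosome, had 5.70 to 42.6 CPM with DMSO (median 16.2) and 8.32 to 41.6 CPM with 27HC (median 16.6), and differed by -0.02 (SE 0.37). In both treatments the highest tumours were low-GC libraries: Dcn was at 172 to 233 CPM in the 5 and at 56.3 to 116 CPM in the 14 others. Without the 5, Dcn differed by -0.25 and Lum by 0.018.

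The 8 genes grouped as elastic fibre and microfibril had log2 fold changes between 0.16 and 0.80. Their median was 0.29, and 0.35 without the low-GC libraries. The highest was the fibronectin type III gene Fndc1, and the next was Mfap5 at 0.37. All 8 lay above 0, as did 53.9% of all genes tested, and all 8 stayed above 0 with 1 tumour left out at a time. In those fits Eln ran from 0.19 to 0.44, Fbln2 from 0.058 to 0.25, Mfap2 from 0.085 to 0.26 and Mfap4 from 0.096 to 0.25. Each of these genes was lowest without DMSO 1_5, a low-GC library. Among tumours with first title number 1 alone, Eln (-0.07), Fbln1 (-0.06) and Mfap2 (-0.11) lay below 0. The group's median was 0.19 among those tumours and 0.37 among those with first number 2. Fndc1 (chromosome 17, 7738569 to 7827302, minus strand) had 7.65 to 33.7 CPM with DMSO (median 19.8; mean 20.8 ± 8.83, SD) and 20.7 to 49.7 CPM with 27HC (median 38.9; mean 35.9 ± 9.90, SD). Each 27HC tumour exceeded the median of the DMSO tumours (10 of 10), while the ranges overlapped. Its log2 fold change was 0.80 (SE 0.24, 95% interval 0.30 to 1.30), with an unadjusted p of 0.00343 and an edgeR adjusted p of 1.00. It lay between 0.68 and 0.91 when each tumour was left out in turn, at 0.82 without the low-GC libraries, and at 0.78 within each first title number. Across all other fits its adjusted p ran from 0.688 to 1.00.

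Mfap5, which encodes a microfibril glycoprotein that binds fibrillin (chromosome 6, 122505845 to 122529290, plus strand), had 9.22 to 16.8 CPM with DMSO (median 12.3; mean 13.3 ± 2.44, SD) and 11.7 to 22.9 CPM with 27HC (median 17.1; mean 17.1 ± 3.10, SD). Of the 10 27HC tumours, 9 exceeded the DMSO median. The log2 fold change was 0.37 (SE 0.14, 95% interval 0.08 to 0.65), the unadjusted p 0.0159 and the edgeR adjusted p 1.00. Leaving out 1 tumour at a time gave 0.30 to 0.42, and leaving out the low-GC libraries gave 0.36.

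Elastin itself (Eln) had 31.2 to 163 CPM with DMSO (median 88.5) and 31.1 to 202 CPM with 27HC (median 125). Its lowest tumours, DMSO 1_5 and 27HC 2_3, are low-GC libraries, and 27HC 2_1 was the highest. The difference was 0.32 (SE 0.32, 95% interval -0.35 to 0.98), and it was -0.07 among tumours with first title number 1 and 0.67 among those with 2. Fibrillin-1 (Fbn1), the core of the microfibril, had medians of 69.8 and 81.4 CPM and differed by 0.25 (SE 0.22). Fibulin-1 (Fbln1), which binds elastin and fibronectin, had medians of 29.2 and 34.0 CPM and differed by 0.33 (SE 0.23), with 27HC 2_1 highest at 62.1 CPM. Fibulin-2 (Fbln2), with 237 to 651 CPM with DMSO (median 408) and 304 to 653 CPM with 27HC (median 547), differed by 0.16 (SE 0.18). Of the smaller microfibril-associated genes, Mfap2 had medians of 5.66 and 6.56 CPM and differed by 0.19 (SE 0.23). Mfap4 had medians of 17.6 and 20.3 CPM, differed by 0.19 (SE 0.15), and lay above the DMSO median in 9 of 10 27HC tumours. Over the 14 other tumours the differences were 0.45 for Eln, 0.33 for Fbn1, 0.53 for Fbln1, 0.20 for Fbln2, 0.35 for Mfap2 and 0.17 for Mfap4.

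**Figure D2:**
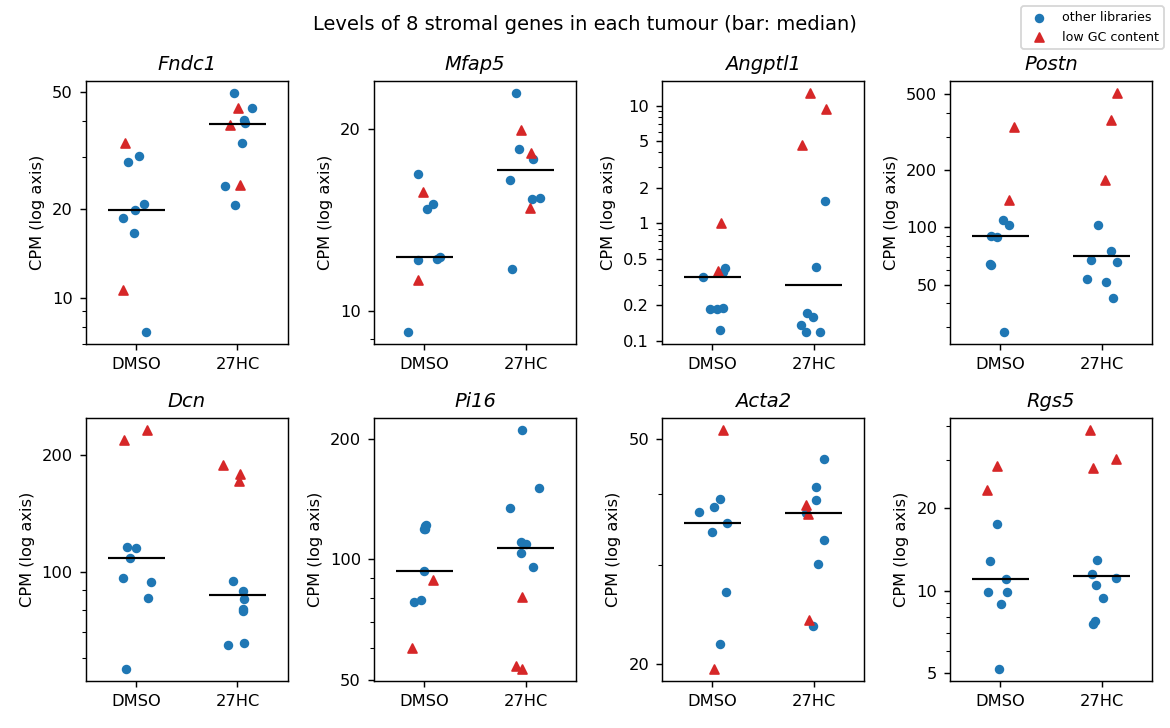
CPM (log axis) of 8 of the genes in each tumour by treatment, with a bar at the median and triangles for the 5 low-GC libraries. Fndc1 and Mfap5 sit higher with 27HC while the groups overlap, Angptl1 is high in 3 low-GC 27HC tumours (4.59 to 12.8 CPM), and Postn, Dcn and Rgs5 are highest in the low-GC libraries of both treatments.

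Matricellular proteins are secreted into the matrix and act on cells more than as scaffold. Their 5 genes had a median log2 fold change of 0.25, and of 0.02 without the low-GC libraries. Periostin (Postn, chromosome 3, 54361109 to 54391037) varied most after Angptl1: 28.1 to 339 CPM with DMSO (median 90.5) and 42.4 to 509 CPM with 27HC (median 70.9), an 18.1-fold range. The highest tumour of each treatment, 27HC 1_3 at 509 and DMSO 2_3 at 339 CPM, was a low-GC library. Postn differed by 0.42 (SE 0.51), by -0.24 without the low-GC libraries and by -0.06 without 27HC 1_3 alone.

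Tenascin-C (Tnc) is a large glycoprotein of wounds and tumour matrix. It had 102 to 256 CPM with DMSO (median 194) and 116 to 295 CPM with 27HC (median 220). Its difference was 0.25 (SE 0.19). Sparc, which binds collagen and calcium, was abundant in every tumour, 795 to 1888 CPM with DMSO (median 1561) and 927 to 2037 CPM with 27HC (median 1569), and differed by 0.01 (SE 0.16). Thbs1 and Thbs2 encode thrombospondins, which restrain vessel growth, and Thbs1 also activates latent TGF-beta. Thbs1 had medians of 216 and 191 CPM and differed by -0.0035 (SE 0.17). Thbs2 had medians of 66.7 and 85.5 CPM and differed by 0.30 (SE 0.33), and by 0.17 without the low-GC libraries. Leaving those out, Tnc differed by 0.31, Sparc by 0.016 and Thbs1 by -0.13.

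The 3 cross-linking enzymes, lysyl oxidases that oxidise lysines of collagen and elastin, lay above 0 with a median of 0.14. Lox had 17.0 to 82.8 CPM with DMSO (median 47.4) and 27.5 to 87.4 CPM with 27HC (median 50.9), and differed by 0.13 (SE 0.25). Loxl1, the enzyme most tied to elastin, had 20.5 to 66.1 CPM with DMSO (median 42.6) and 25.7 to 108 CPM with 27HC (median 59.6), and differed by 0.36 (SE 0.27, 95% interval -0.21 to 0.93). Its difference was -0.14 among tumours with first title number 1 and 0.78 among those with 2, and the highest tumour was again 27HC 2_1. Loxl2 had medians of 29.4 and 34.9 CPM and differed by 0.14 (SE 0.20). Leaving out the low-GC libraries gave differences of 0.050 for Lox, 0.51 for Loxl1 and 0.22 for Loxl2.

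Contractile genes did not separate the treatments, with 2 above and 2 below 0 and a median of 0.02. Acta2, the smooth-muscle actin that defines myofibroblasts (chromosome 19, 34241090 to 34255590, minus strand), had 19.6 to 52.0 CPM with DMSO (median 35.5) and 23.4 to 46.1 CPM with 27HC (median 36.9). Its difference was 0.05 (SE 0.18, 95% interval -0.32 to 0.42). Tagln, an actin-binding protein of smooth muscle, had medians of 16.7 and 16.9 CPM and differed by -0.09 (SE 0.16). Myh11, the smooth-muscle myosin heavy chain, had 2.44 to 13.3 CPM with DMSO (median 3.33) and 1.89 to 7.33 CPM with 27HC (median 4.98). In 9 of 10 27HC tumours it lay above the DMSO median, yet DMSO 2_3 held the highest value, and the difference was -0.0016 (SE 0.31), or 0.25 without the low-GC libraries. Cnn1, the actin-binding calponin, had medians of 2.60 and 2.40 CPM and differed by 0.10 (SE 0.25). Among the 14 other tumours Cnn1 differed by 0.31, Acta2 by 0.11 and Tagln by -0.07, and the group's median was 0.18.

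The 6 pericyte genes had a median of 0.10 with 4 above 0. Rgs5, a regulator of G-protein signalling enriched in pericytes (chromosome 1, 169655501 to 169695813, plus strand), had 5.16 to 28.5 CPM with DMSO (median 10.9972) and 7.54 to 38.9 CPM with 27HC (median 11.3). The low-GC libraries were highest in both treatments, and the difference was 0.24 (SE 0.37), or -0.07 without them. Cspg4, the proteoglycan NG2 of pericytes, had medians of 5.86 and 7.16 CPM and differed by -0.0034 (SE 0.19). Mcam, an adhesion protein of vessel walls and endothelium, had medians of 34.5 and 33.9 CPM and differed by 0.03 (SE 0.16). Abcc9 and Kcnj8, neighbours on chromosome 6, encode the regulatory and pore subunits of a potassium channel of mural cells. Abcc9 had medians of 10.1 and 11.3 CPM and differed by 0.17 (SE 0.25), while Kcnj8 had medians of 3.42 and 2.82 CPM and differed by -0.21 (SE 0.21). Notch3, the receptor that maintains mural cells, had 8.34 to 22.04 CPM with DMSO (median 15.7) and 6.95 to 32.7 CPM with 27HC (median 17.5), and differed by 0.20 (SE 0.25). When the low-GC libraries were left out the differences were 0.32 for Notch3, 0.085 for Cspg4, 0.022 for Mcam, -0.0011 for Abcc9 and -0.15 for Kcnj8, and the group's median was 0.010.

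Whether the treatment difference itself changed with the first title number was tested as an interaction. No gene passed in edgeR's test, 0 of 15629 (0%) and 0 of 38 members, and 223 genes and 2 members had an unadjusted p under 0.05. DESeq2 also called 0 genes, with 331 at an unadjusted p under 0.05, and limma-voom 0, with 194. The 2 members were both pericyte genes. For Notch3 the difference was -0.30 among tumours with first number 1 and 0.70 among those with 2, an interaction of 1.05 (SE 0.47, edgeR adjusted p = 0.911). For Cspg4 it was -0.30 and 0.44, an interaction of 0.79 (SE 0.35, edgeR adjusted p = 0.911). By limma-voom neither member had an unadjusted p under 0.05. Both genes had a lower mean log2 CPM in the low-GC libraries, by -1.02 for Notch3 and -0.65 for Cspg4. Those libraries are spread unevenly over treatment and first number, and the interaction was not fitted without them.

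**Figure D3:**
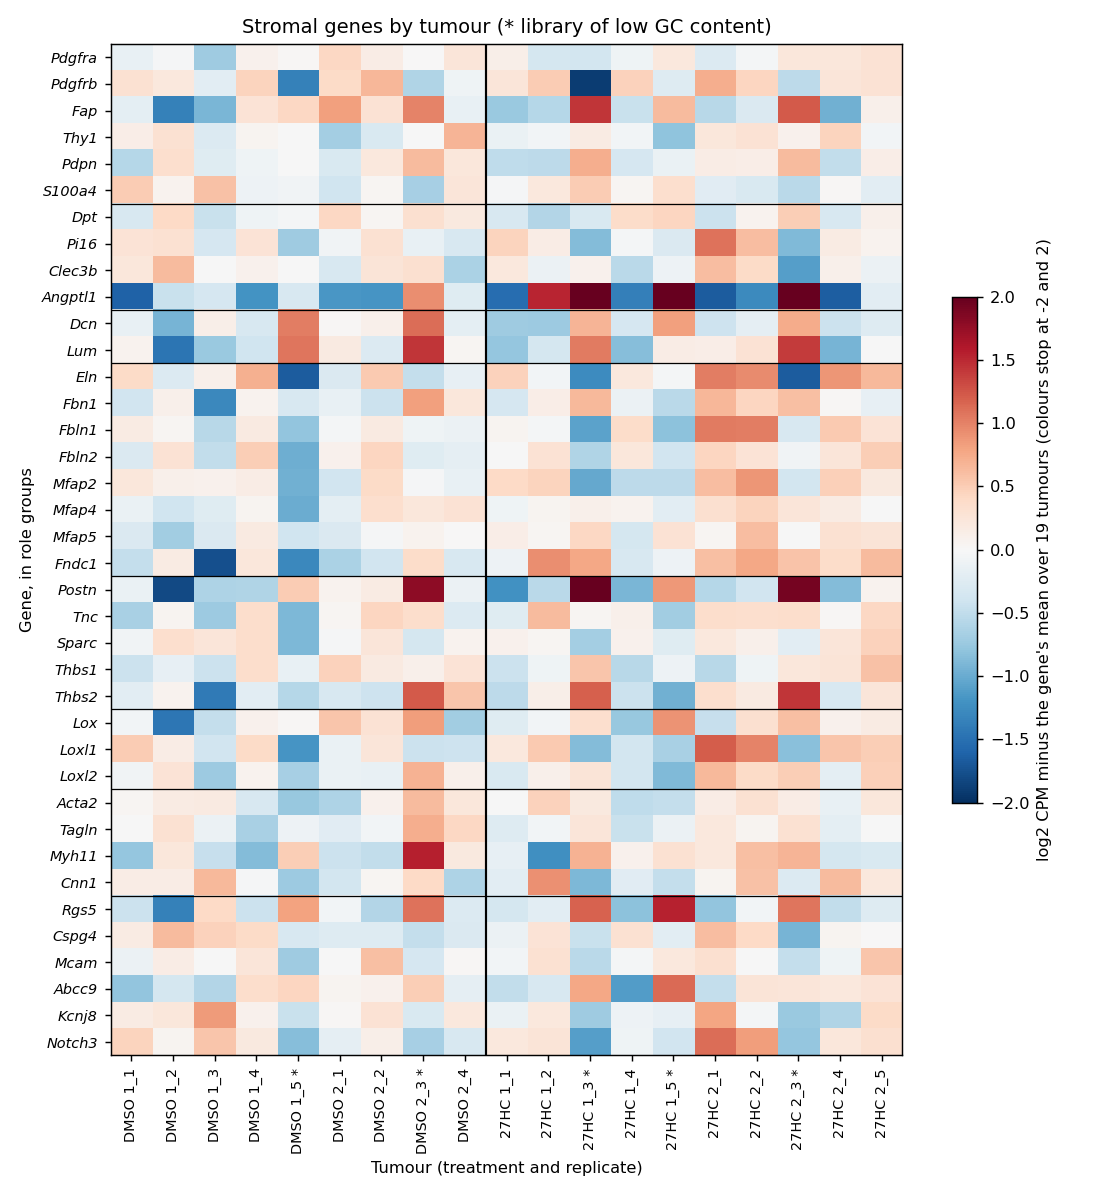
Level of each of the 38 genes (rows, grouped by role) in each of the 19 tumours (columns, DMSO then 27HC), as log2 CPM minus the gene's mean over tumours. An asterisk marks the 5 low-GC libraries, in which Postn, Rgs5 and Dcn are higher and Pdgfrb, Sparc, Loxl1 and Notch3 lower than in all 14 other libraries.

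The stromal genes varied between tumours of the same treatment about as much as other genes did. The median SD of log2 CPM within a treatment was 0.51 for the members and 0.48 over all genes tested. It was 0.37 for the members without the low-GC libraries, where the value over all genes was not computed. The highest tumour exceeded the lowest by a median of 3.74 times for members and 3.21 times over all genes. Of the 38 members, 8 had an SD above the upper quartile of all genes tested, 0.69. Angptl1 and Postn were the most variable members, with SDs of 1.91 and 1.12, and Mfap5 and Pdgfra the least, with 0.27 and 0.28.

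Part of that variation followed the low-GC libraries, in members no more than in other genes. The median absolute log2 difference between these libraries and the 14 others was 0.64 for members and 0.64 for all genes with a GC value. The 5 low-GC libraries all lay above the 14 others for Dcn, Postn and Rgs5, 3 of 38 members against 10.3% of all genes tested. They all lay below the others for Pdgfrb, Sparc, Loxl1 and Notch3, 4 members against 12.8% of all genes tested. Both counts together made up 18.4% of the members, and 23.1% of all genes with a GC value, and genes of the same cell type went both ways. Among pericyte genes Rgs5 had a mean of 29.8 CPM in the low-GC libraries and 10.4 CPM in the others, a ratio of 2.86, and Notch3 had 9.02 and 18.8 CPM, a ratio of 0.48. Among matrix genes the ratio was 4.27 for Postn, 2.58 for Lum and 2.26 for Dcn, against 0.41 for Eln and 0.46 for Loxl1. For the PDGF receptors it was 1.01 for Pdgfra and 0.45 for Pdgfrb.

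Direction went with base composition, which the choice of these libraries by their mean transcript GC content largely fixes in advance. Of the 13 members whose transcripts hold under 50% G and C, 12 had a higher mean log2 CPM in the low-GC libraries. Of the 25 with at least 50%, 19 had a lower one. Across the 38 genes the GC content and the log2 difference had a Pearson r of -0.81 and a Spearman rho of -0.85, and across 15406 genes with a GC value -0.70 and -0.72. These are descriptions across genes measured in the same libraries, and genes are not independent replicates. A loess correction for GC content in each library brought the members' r to -0.32 and their median absolute difference from 0.64 to 0.27. It was fitted on the same GC values, so a fall in r was built in. Differences remained on the higher side for Angptl1 (3.34 before, 2.73 after), Myh11 (1.02 before, 1.32 after), Postn (2.02 before, 1.07 after) and Rgs5 (1.55 before, 0.73 after), and on the lower side for Pdgfrb (-1.26 before, -0.75 after) and Eln (-1.39 before, -0.74 after). Other genes differed more after the correction than before it, among them Fbn1 (0.33 before, 0.70 after), Clec3b (-0.22 before, 0.69 after) and Fndc1 (0.09 before, 0.65 after). With that correction 0 members were called between 27HC and DMSO and 30 of 38 lay above 0.

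**Figure D4:**
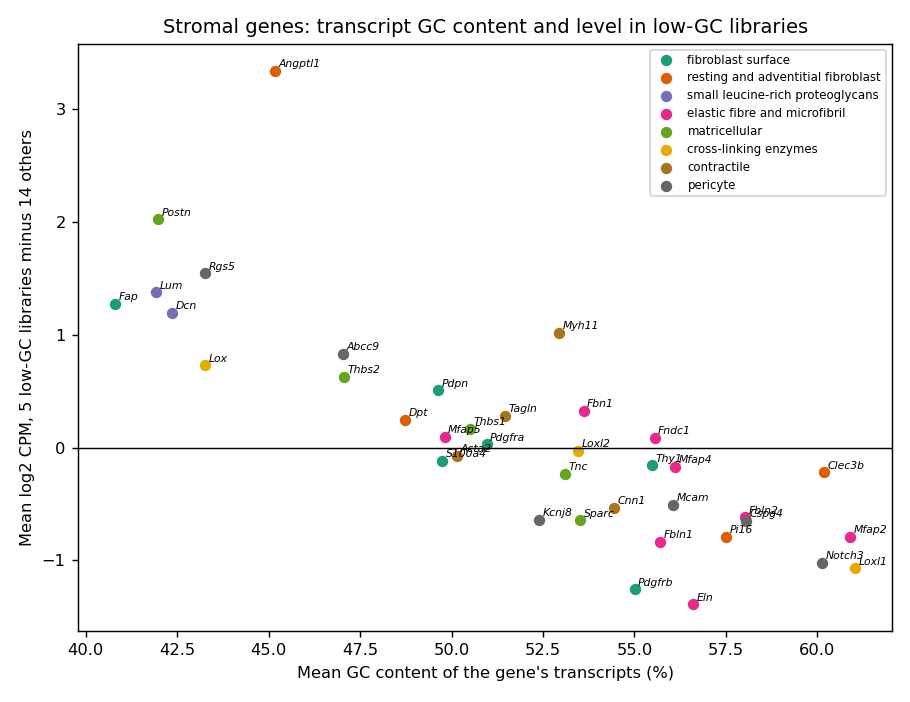
Mean log2 CPM in the 5 low-GC libraries minus that in the 14 others (vertical axis) against the mean GC content of the gene's transcripts (horizontal axis), 1 point per gene, coloured by group. Genes near 42% such as Postn and Lum lie above 0 and genes near 60% such as Loxl1 and Notch3 below, with Angptl1 and Myh11 above the trend.

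Whether genes of the same and of different cell types varied together was examined for 14 pairs of members. Over all 19 tumours, the planned set, 8 of the 14 pairs had a correlation with adjusted p under 0.05. The low-GC libraries differ from the others in GC content, so coefficients are given within the 14 other tumours. That choice was made after seeing the data. Among the 14 tumours 1 pair passed by Pearson's r and 2 by Spearman's rho. P-values are two-sided, from 100000 permutations, adjusted over the 14 pairs. Pi16 and Clec3b, both of adventitial fibroblasts, had r = 0.79 (p = 0.00085, adjusted permutation p = 0.0119) and rho = 0.88 (p = 8e-05, adjusted permutation p = 0.00112). Leaving out 1 of the 14 tumours at a time, r stayed between 0.73 and 0.85 and passed in 13 of 14 cases. Without 27HC 2_1, which held the highest Pi16, r was 0.75 with an adjusted permutation p of 0.0503, and then no pair passed by r. By rho the pair passed in 14 of 14 cases. Without the 2 tumours farthest from the median of Pi16 r was 0.87. It was 0.77 in the 7 DMSO and 0.92 in the 7 27HC tumours, and 0.53 and 0.95 among the 7 tumours of first title number 1 and the 7 of 2.

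Acta2 and Tagln, both of the contractile apparatus, had r = 0.66 (p = 0.0095, adjusted permutation p = 0.0665) and rho = 0.71 (p = 0.00556, adjusted permutation p = 0.0389), and r = 0.66 without the 2 farthest tumours. With 1 tumour left out the adjusted permutation p by rho ran from 0.0179 to 0.126 and passed in 7 of 14 cases. It did not pass without DMSO 1_4, 2_1, 2_2 or 2_4, or without 27HC 1_1, 1_4 or 2_4. By r the pair passed in 3 of 14 cases, without DMSO 2_1, DMSO 2_2 or 27HC 1_2. Their r was 0.68 in DMSO and 0.77 in 27HC tumours. The other contractile pairs did not pass, with r = -0.01 for Tagln and Cnn1 and r = -0.30 for Myh11 and Cnn1. Decorin was related to lumican with r = 0.54 (adjusted permutation p = 0.128) and to Rgs5 with r = 0.60 (adjusted permutation p = 0.0846), neither past the threshold. Without the 2 tumours farthest from the median of Dcn these were 0.32 and 0.48. Rgs5 and Notch3 had r = 0.12, Abcc9 and Kcnj8 r = -0.22, and Pdgfra and Dcn r = 0.03. Fbn1 and Fbln2 had r = 0.60 (adjusted permutation p = 0.0846), and 0.14 without the 2 tumours farthest from the median of Fbn1. Besides Dcn and Rgs5, pairs across cell types included Dcn and Acta2 (r = -0.21) and Acta2 and Rgs5 (r = 0.12).

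**Figure D5:**
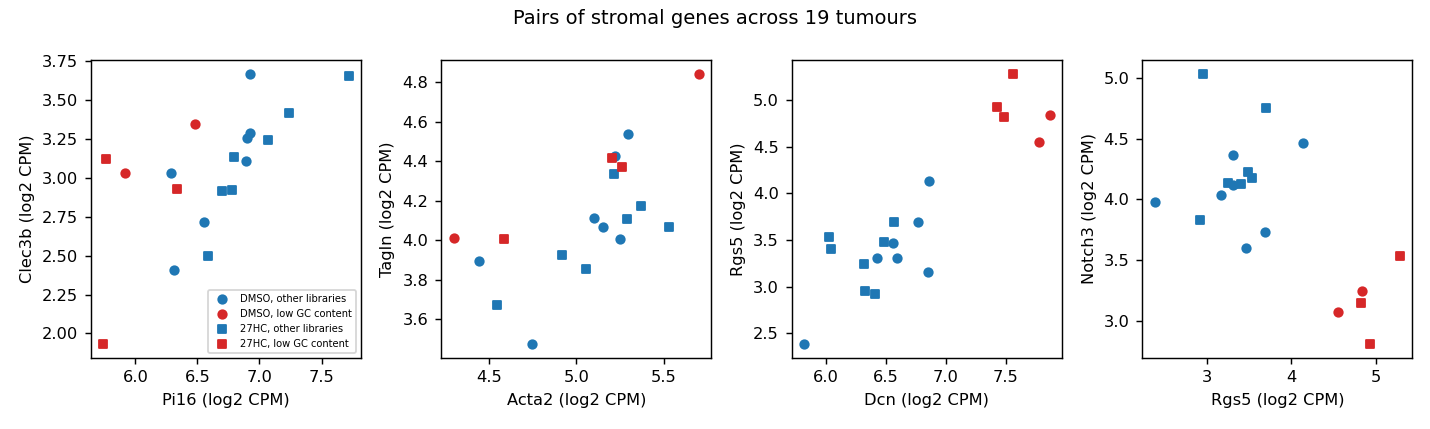
Log2 CPM of 4 pairs of genes in the 19 tumours, with colour and marker shape telling apart the low-GC libraries and the treatments. Pi16 and Clec3b lie along a line (r = 0.79 in the 14 other tumours), Acta2 and Tagln less closely (r = 0.66), and in the panels with Rgs5 the low-GC libraries sit apart.

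Other stromal genes were read from 5 lists. Of 97 genes 95 were tested, 63 lay above 0, 0 were called and 3 had an unadjusted p under 0.05, with a median log2 fold change of 0.07. In the list of PDGF and TGF-beta pathway genes 12 of 18 lay above 0. Ccn2, the connective tissue growth factor that TGF-beta induces, had 63.6 ± 12.1 CPM with DMSO and 90.7 ± 27.95 CPM with 27HC (SD), a difference of 0.52 (SE 0.17, edgeR adjusted p = 1.00), and of 0.48 without the low-GC libraries. In the list of matrix genes 20 of 28 lay above 0. Efemp1, a fibulin, differed by -0.76 (SE 0.35), and by -0.03 without the low-GC libraries. In the list of mural cell genes 12 of 18 lay above 0, and Vtn, which encodes vitronectin, differed by 0.92 (SE 0.41), or by 0.21 without the low-GC libraries. In the list of fibroblast genes 11 of 19 lay above 0, led by Cthrc1 at 0.36 (SE 0.26), or 0.15 without the low-GC libraries. Over the 14 other tumours the counts above 0 were 10 of 18 pathway, 19 of 28 matrix, 9 of 18 mural cell and 10 of 19 fibroblast genes.

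In the list of contractile genes 9 of 13 lay above 0, and 6 of 13 without the low-GC libraries. Des, the intermediate filament of muscle, differed by 1.83 (SE 1.02), the tropomyosin gene Tpm2 by 1.34 (SE 0.67) and Synpo2 by 0.90 (SE 0.50), and without the low-GC libraries by 0.29, -0.23 and -0.21. Skeletal muscle also expresses these genes. Its markers lay above 0 in 12 of 12, with a median of 1.64, and of -0.92 without the low-GC libraries. With the muscle score as covariate 0 members were called and 23 of 38 lay above 0.

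Markers of other cells that border the stroma gave no call. Fat cell genes lay below 0 in 7 of 7 tested. Their summed level ran from 192 to 334 CPM in DMSO (median 231) and from 79.0 to 361 CPM in 27HC tumours (median 238). The medians of the sum thus lay in the opposite order. Macrophage genes lay below 0 in 8 of 8, at 1933 to 3559 and 1708 to 3321 CPM. Endothelial genes, whose vessels pericytes wrap, lay above 0 in 4 of 8, at 138 to 217 and 139 to 224 CPM. Basal and myoepithelial genes, which include contractile cells of the mammary gland, lay above 0 in 3 of 6, at 17.3 to 34.6 and 14.9 to 33.5 CPM. Luminal epithelial genes lay above 0 in 5 of 8, at 62.8 to 150 and 45.1 to 155 CPM. T cell genes lay above 0 in 1 of 6 and Schwann cell genes in 1 of 5. Without the low-GC libraries the counts above 0 were 2 of 7 fat cell, 0 of 8 macrophage, 2 of 8 endothelial, 5 of 6 basal, 7 of 8 luminal, 0 of 6 T cell and 3 of 5 Schwann cell genes. The luminal median was 0.13 with these libraries and 0.55 without, and the basal median 0.03 and 0.38. Between tumours of first title number 1 and 2 the luminal median was -0.66 and 0.83. The part of these cells in the stromal values was not tested.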

How the data were processed

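RNA of 19 whole tumours (9 DMSO, 10 27HC, grouped by the treatment label) was sequenced from stranded poly(A) libraries, per the labels' protocols. The authors deposited 1 table of expected counts per gene; kallisto 0.44.0, limma, edgeR and the build GRCm38 are listed in the submitters' processing notes. The sources used here do not give how transcripts were summed to genes, the annotation release or filters. Symbols matched 26290 identifiers and were missing for 506.

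The expected counts were rounded, and tested with edgeR 4.0.16 (R 4.3.3; TMM scaling, default expression filter, quasi-likelihood test, Benjamini-Hochberg adjustment over 15629 genes, threshold 0.05); 11167 genes were not tested. CPM use TMM library sizes, and log2 CPM a prior count of 2. Correlations used 100000 permutations. Members and lists were chosen with earlier results of these data known; all 38 members are named, plus up to 3 genes of smallest unadjusted p per further list. Coordinates, exon lengths and GC content come from GENCODE M21. Low-GC libraries have a mean transcript GC under 50.5%, a limit set after seeing the data. Alternatives were DESeq2 1.42.0, limma-voom (limma 3.58.1), other scaling, filters and covariates, title number blocks, and leaving out tumours. Estimated counts split reads between near-identical transcripts by a model. Counts were least precise for scarce genes such as Angptl1 (2.62 to 562 expected counts per library). No pair of libraries in a group was a duplicate (lowest chi-square per degree of freedom 42.1).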

Additional observations from a re-analysis of the deposited data

Results flagged for a closer look

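Within a treatment, a tumour was singled out where its distance to the nearest tumour was large against the whole range of its group (Dixon's 95% criterion). This occurred in 4 of 76 gene and treatment groups, and chance alone gives about 1 in 20. All 4 are high values of DMSO tumours, and 3 are of DMSO 2_3, a low-GC library: Postn at 338.7 CPM with the next tumour at 139, Myh11 at 13.3 CPM with the next at 6.38, and Angptl1 at 1.00 CPM with the next at 0.413. The other was Kcnj8 at 5.59 CPM in DMSO 1_3, with the next tumour at 3.76 CPM. Without DMSO 2_3 the log2 fold change was 0.87 for Postn, 0.34 for Myh11 and 3.48 for Angptl1, and without DMSO 1_3 it was -0.08 for Kcnj8.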

How the results depend on the processing

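No stromal gene was called in any of the 32 other fits of the treatment comparison, and the members' median log2 fold change lay between 0.045 and 0.17. The number of members above 0 lay between 21 and 31, and the number with an unadjusted p under 0.05 between 1 and 5. DESeq2 called 2 genes over the whole table, where the other fits called 0. Without the 5 low-GC libraries 917 genes had an unadjusted p under 0.05, and 1 of the 14 pairs passed by Pearson's r in place of 8. Leaving out 1 tumour at a time, 6 to 8 pairs passed among all 19 tumours, and 0 to 4 by r and 1 to 2 by rho among the 14; the count of 0 came without 27HC 2_1, where Pi16 and Clec3b had an adjusted permutation p of 0.0503. The members' median SD was between 0.37 and 0.52. Tumours with the same title number did not all deviate together: across 9 pairs r ran from -0.43 to 0.78, and 1 of 9 correlated best with its own number. With that number as a replicate block 0 genes were called, 226 had an unadjusted p under 0.05 and the members' median was 0.080. The low-GC fit, the GC correction and their limit were chosen after seeing the data. Depth limits Angptl1, Fap and Cnn1 most, the members with the lowest mean CPM.

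Of 492 log2 fold changes of members under other settings, 418 kept the sign and 74 took the opposite one, and 9 of 38 members never changed sign in any fit. Those of opposite sign follow, and the cause was not tested. With sample quality weights these were 0.0055 for Pdgfra, -0.43 for Fap, 0.048 for Clec3b, -0.26 for Postn, 0.013 for Tagln, 0.34 for Myh11 and 0.10 for Cspg4. In tumours with first number 1 alone these were 0.047 for Pdgfra, -0.19 for Thy1, 0.044 for Pdpn, 0.027 for S100a4, 0.047 for Dpt, -0.069 for Pi16, 0.011 for Dcn, 0.065 for Lum, -0.066 for Eln, -0.063 for Fbln1, -0.11 for Mfap2, -0.16 for Sparc, 0.086 for Thbs1, -0.14 for Loxl1, -0.0018 for Loxl2, 0.25 for Myh11, -0.15 for Cnn1 and -0.30 for Notch3. With the muscle score as covariate these were 0.0083 for Pdgfra, -0.15 for Fap, -3.93e-05 for Thy1, -0.12 for Postn and -0.086 for Rgs5. With the GC correction these were 0.045 for Pdgfra, -0.087 for Fap, 0.0035 for Pdpn, 0.099 for Lum, 0.029 for Thbs1 and 0.047 for Myh11. With limma-voom these were -0.013 for Fap, 0.024 for Lum and 0.11 for Myh11. With the replicate block these were -0.090 for Fap, 0.0068 for Lum, -0.026 for Sparc, 0.17 for Myh11 and -0.021 for Mcam. In tumours with first number 2 alone these were -0.42 for Fap, 0.11 for Clec3b, -0.27 for Postn, -0.16 for Lox, -0.017 for Acta2, -0.14 for Rgs5, 0.44 for Cspg4, -0.0090 for Mcam and -0.0078 for Abcc9. Without the low-GC libraries these were -0.43 for Fap, 0.040 for Clec3b, 0.018 for Lum, -0.24 for Postn, 0.25 for Myh11, -0.072 for Rgs5, 0.085 for Cspg4 and -0.0011 for Abcc9. With a filter at a mean of 1 log2 CPM these were -0.011 for Thy1 and -0.0077 for Sparc. With the first title number as covariate these were -0.0056 for Thy1, -0.0081 for Sparc, 0.0077 for Myh11 and 0.039 for Cspg4. With DESeq2 these were 0.0010 for Thbs1, 0.014 for Myh11 and 0.019 for Cspg4. With RLE size factors these were 0.0010 for Thbs1, 0.014 for Myh11 and 0.018 for Cspg4. With no filter it was 0.0020 for Myh11.

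Of 722 log2 fold changes with 1 tumour left out, 86 had the opposite sign, in these members and ranges: Pdgfra -0.089 to 0.028, Pdgfrb -0.043 to 0.19, Fap -0.21 to 0.22, Thy1 -0.060 to 0.11, Pdpn -0.15 to 0.088, S100a4 -0.15 to 0.034, Lum -0.30 to 0.24, Postn -0.055 to 0.87, Sparc -0.087 to 0.053. The remaining ranges were Thbs1 -0.12 to 0.054, Lox -0.0067 to 0.28, Acta2 -0.042 to 0.15, Tagln -0.18 to 0.015, Myh11 -0.14 to 0.34, Cnn1 -0.028 to 0.21, Cspg4 -0.081 to 0.071, Mcam -0.048 to 0.13, Abcc9 -0.0090 to 0.27. Among correlations with 1 tumour left out, ranges that crossed 0 were those of Pdgfra and Dcn (-0.11 to 0.45), Tagln and Cnn1 (-0.12 to 0.32) and Acta2 and Rgs5 (-0.023 to 0.34). Tagln and Cnn1 had r = 0.037 with RLE size factors and 0.027 after removing the treatment means, and over all 19 tumours Rgs5 and Notch3 had r = -0.65 and Acta2 and Rgs5 r = -0.031.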
